A study of Mus musculus with 4 samples.

Results

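The genes described here are 10 secreted or cell-surface proteins of cartilage other than collagens: Acan, Hapln1, Comp, Matn1, Matn3, Chad, Cnmd, Cytl1, Ucma and Snorc. They were followed through every probe set of the array annotated to exactly 1 of these symbols. All 10 genes were measured, by 15 of the 45037 probe sets, and they are 10 of the 18193 genes that had at least 1 probe set of their own. Hapln1 had 4 probe sets, Matn3 and Ucma had 2 each, and the other 7 genes had 1 each.

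The RNA came from adult recipient NOD/SCID mice of the strain labelled NOD.CB17-Prkdc scid/J, in which the scid mutation blocks the formation of mature B and T cells. Cells were sorted from total bone marrow as negative for lineage antigens, CD45, CD31 and Sca1 and positive for CD51, the integrin alpha v chain, and the submitters call them osteoblast cells. The areas compared were the trabecular bone area (2 arrays) and the long bone area (2 arrays), and all 4 samples share strain, sort and tissue. No source used here says what the recipients were given, how many there were or whether animals were pooled, so p-values measure only the spread between these samples.

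Cartilage resists compression because very large proteoglycan aggregates are held in a collagen network. Aggrecan, the product of Acan, carries many chondroitin sulfate chains and binds to hyaluronan, and the link protein Hapln1 locks that bond. Adaptor proteins such as the matrilins and Comp tie the aggregates and the collagen fibrils together. In bone this tissue covers the joint surfaces and forms the growth plate.

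All 10 genes were lower in the trabecular area than in the long bone area, and the arrays of the areas overlapped for none of them, although Matn1 turned higher when the arrays were scaled to spiked controls. Comp was 36.2-fold lower, Matn3 11.6-fold, Chad 10.01-fold, Hapln1 8.17-fold and Cnmd 6.84-fold. Cytl1, Snorc, Acan and Ucma were 3.71-fold, 3.47-fold, 3.37-fold and 2.45-fold lower. Matn1 stood at the other end, 1.19-fold lower. Non-overlapping and lower were 10 of the 10 genes, where 21.4% of all genes were. By at least 2-fold it was 9 of the 10 and 1.17% of all genes, and by at least 4-fold 5 of the 10 and 0.308%. Of the 15 probe sets all were non-overlapping and lower (26.2% of all probe sets), 13 by at least 2-fold (2.71%) and 8 by at least 4-fold (0.608%).

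None of the 10 passed the test. With limma's moderated test, 0 of the 10 genes and 0 of the 15 probe sets had an adjusted p under 0.05, where 0% of all genes and 0% of all probe sets passed. At an unadjusted p under 0.05 there were 9 of the 10 genes, all but Matn1, while 4.62% of all genes were lower at that p. Ordinary t statistics also called 0 of the 10, with 0.0055% of all genes and 0.00222% of all probe sets passing. The calls depended on the setting: 9 of the 10 passed when long bone array 1 was left out (8.81% of all genes), but 0 when long bone array 2 was (0.0055%). After scaling to the spiked controls 6 of the 10 genes passed (15.7% of all genes) and 1 of the 15 probe sets (0.00444% of all probe sets). The median log2 difference over the 10 genes was -2.33, beside 0.03 over all 18193 genes. With 2 arrays in each area, the smallest two-sided p of an exact permutation test is 0.333. These are whole sorted populations, in which fewer cells of a type and less RNA per cell cannot be told apart.

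The deposited values are log2 expression centred so that each probe set's median over the 4 arrays is 0. They hold differences between arrays and no level, so genes cannot be ranked by abundance, and whether the labelled cell type's markers are present could not be checked. Centring on the median of 4 values also makes the middle pair of arrays equal in size and opposite in sign. The second long bone array had the most probe sets far from their median. The number of probe sets 2-fold or more away from their median was 848 and 383 on trabecular arrays 1 and 2, against 777 and 2493 on long bone arrays 1 and 2. For Gapdh, whose control probe sets at both transcript ends report on RNA integrity, the value at the 5' end minus that at the 3' end was 0.31 and 0.09 on the trabecular arrays, against -0.09 and -1.16 on the long bone arrays. The same value for Actb was 0.44 and -0.068 on the trabecular arrays, against 0.068 and -0.037 on the long bone arrays. Both controls were highest on trabecular array 1, but the lowest value was on long bone array 2 for Gapdh and on trabecular array 2 for Actb. The medians over the 9 spiked hybridisation controls were -0.13 and -0.23 on the trabecular arrays and 0.22 and 0.23 on the long bone arrays.

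**Figure D1:**
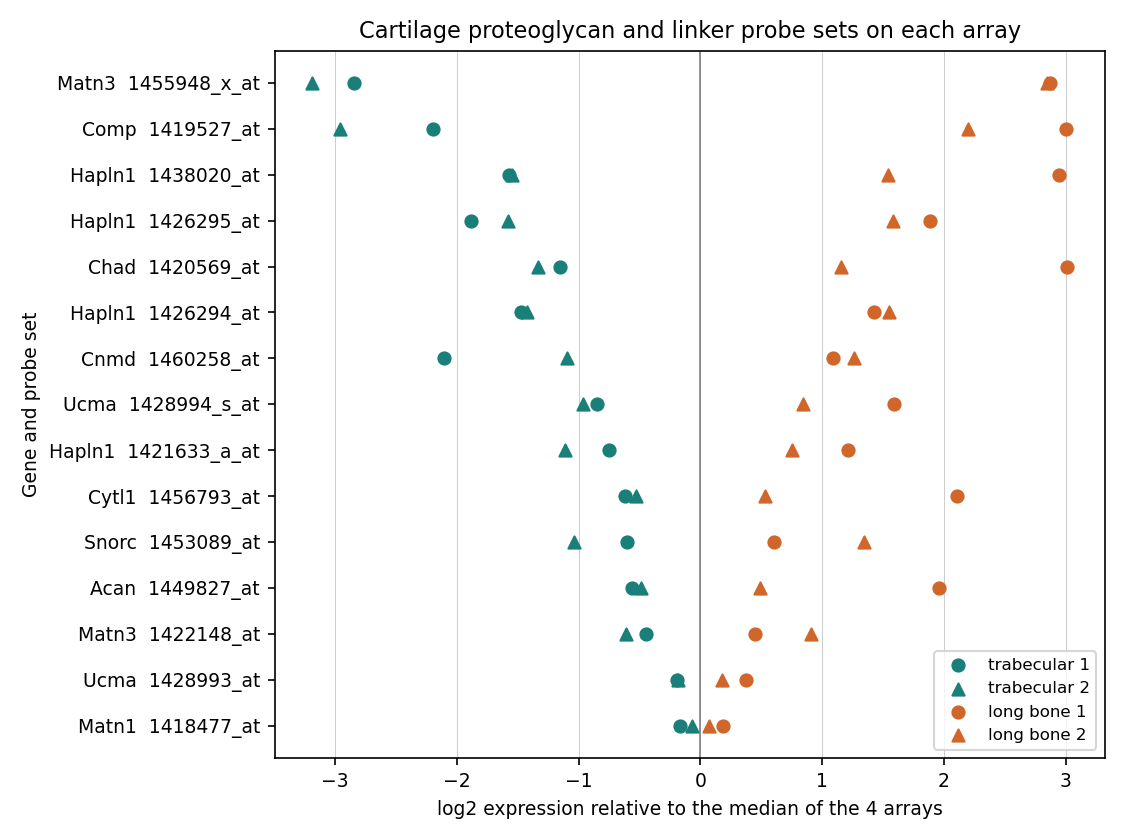
Deposited log2 expression, 0 being a probe set's own median (horizontal axis), for each of the 15 probe sets (vertical axis), with 1 point per array; colour gives the area and shape the replicate. In every row both trabecular points lie left of both long bone points, from Matn3 probe set 1455948_x_at, with a log2 difference of -5.87, to Matn1, with one of -0.25.

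Acan encodes aggrecan, the main proteoglycan of cartilage. Its probe set, 1449827_at, read -0.56 and -0.49 on trabecular arrays 1 and 2, against 1.96 and 0.49 on long bone arrays 1 and 2. The trabecular arrays were close together, the long bone arrays were far apart, and the gap between the areas (0.98) was smaller than the distance between the long bone arrays (1.47). Its log2 difference was -1.75 (95% interval -3.09 to -0.41, limma adjusted p = 0.270), and it was -1.02 without long bone array 1.

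Hapln1 encodes the link protein that stabilises the bond of aggrecan with hyaluronan. Averaged over its 4 probe sets it read -1.42 and -1.41 on the trabecular arrays, against 1.87 and 1.36 on the long bone arrays. The gap between the areas, 2.77, was larger than the distance between replicates in either area. The log2 difference of the gene was -3.03 (95% interval -3.58 to -2.48, limma adjusted p = 0.123). All 4 probe sets ran the same way and differed in size. They differed by -1.91 for 1421633_a_at, -2.94 for 1426294_at, -3.46 for 1426295_at and -3.80 for 1438020_at. The last of these held most of the contrast between the long bone arrays, with 2.94 on array 1 and 1.54 on array 2, while 1426294_at read 1.43 and 1.55 there.

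Snorc encodes a small transmembrane proteoglycan of chondrocytes that carries chondroitin sulfate. Its probe set, 1453089_at, read -0.60 and -1.04 on the trabecular arrays, against 0.60 and 1.35 on the long bone arrays. Unlike Acan it was higher on long bone array 2 than on array 1. Its log2 difference was -1.79 (95% interval -2.62 to -0.97, limma adjusted p = 0.240).

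Comp, cartilage oligomeric matrix protein, belongs to the thrombospondins and binds collagens and matrilins. Probe set 1419527_at read -2.20 and -2.96 on the trabecular arrays, against 3.001 and 2.20 on the long bone arrays. The gap between the areas was 4.40, while replicates were 0.76 and 0.80 apart. Its log2 difference of -5.18 (95% interval -6.21 to -4.15, limma adjusted p = 0.131) was the lowest of the 18193 genes.

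Matn1 and Matn3 encode matrilins, adaptor proteins with von Willebrand factor A domains that link collagen fibrils and proteoglycans. For Matn3 the probe sets disagreed in size. Probe set 1455948_x_at read -2.84 and -3.19 on the trabecular arrays, against 2.87 and 2.84 on the long bone arrays, and its log2 difference of -5.87 (SE 0.17) was the lowest of the 45037 probe sets, with a limma adjusted p of 0.0609. Probe set 1422148_at read -0.45 and -0.61 on the trabecular arrays, against 0.45 and 0.91 on the long bone arrays, a log2 difference of -1.21 (SE 0.21, limma adjusted p = 0.204). The suffix _x_at marks a probe set in which some probes can also match other transcripts. The lower value of 1455948_x_at passed in 3 settings. These were scaling to the spiked controls (limma adjusted p = 0.0451), fitting single-gene probe sets alone (limma adjusted p = 0.0456, 1 of the 15, with 0.00572% of all those probe sets) and taking for each gene its probe set of largest spread (1 of the 10, with 0.011% of all genes). The last setting picks a probe set by its spread over the same 4 arrays, which includes the difference between areas. It therefore favours the probe set with the larger difference, and its pass is no separate support. The mean of the 2 probe sets differed by -3.54 (95% interval -3.97 to -3.11, limma adjusted p = 0.0991).

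Matn1 had the smallest difference of the 10. Probe set 1418477_at read -0.17 and -0.07 on the trabecular arrays, against 0.19 and 0.07 on the long bone arrays. The areas did not overlap, but the gap of 0.14 was close to the 0.12 between the long bone arrays. The log2 difference was -0.25 with a 95% interval of -0.59 to 0.09 (limma adjusted p = 0.408), and 14.7% of all genes had a difference as low or lower. Scaled to the spiked hybridisation controls it was 0.15, in a setting that moved the median of all genes to 0.43, against 0.03 without it.

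Chad, chondroadherin, is a leucine-rich repeat protein through which chondrocytes attach to the matrix. Probe set 1420569_at read -1.15 and -1.33 on the trabecular arrays, against 3.01 and 1.15 on the long bone arrays. Its long bone arrays were the furthest apart of the 10 genes, by 1.86, and the gap between the areas was 2.30. As a log2 difference this was -3.32 (95% interval -5.01 to -1.64, limma adjusted p = 0.240), or -2.39 and -4.25 with long bone array 1 or 2 left out.

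Cnmd, chondromodulin, is a membrane protein whose shed part inhibits the growth of blood vessels into cartilage. Probe set 1460258_at read -2.10 and -1.09 on the trabecular arrays, against 1.09 and 1.26 on the long bone arrays. Here it was the trabecular arrays that were far apart, by 1.01, and the long bone arrays that were close. As a log2 difference this was -2.77 (95% interval -3.73 to -1.82, limma adjusted p = 0.207).

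Cytl1 is a small secreted protein made by chondrocytes. Probe set 1456793_at read -0.62 and -0.53 on the trabecular arrays, against 2.11 and 0.53 on the long bone arrays. As for Acan, the distance between the long bone arrays (1.58) was larger than the gap between the areas (1.06). The log2 difference was -1.89 (95% interval -3.33 to -0.46, limma adjusted p = 0.270), and it was -1.10 without long bone array 1.

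Ucma is a small secreted protein of the upper zone of the growth plate that is rich in gamma-carboxyglutamate. Probe set 1428994_s_at read -0.85 and -0.96 on the trabecular arrays, against 1.59 and 0.85 on the long bone arrays, a log2 difference of -2.12 (limma adjusted p = 0.177). Probe set 1428993_at read -0.19 and -0.18 on the trabecular arrays, against 0.37 and 0.18 on the long bone arrays, a log2 difference of -0.46 (limma adjusted p = 0.264). Both had no overlap, and 10.4% of all probe sets had a difference as low as the second or lower. The suffix _s_at marks a probe set that can match transcripts of more than 1 gene. The mean of the 2 differed by -1.29 (95% interval -1.81 to -0.77, limma adjusted p = 0.236). After scaling to the spiked controls the mean was at -0.89, which is under 2-fold, and 1428993_at was near 0, at -0.059.

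**Figure D2:**
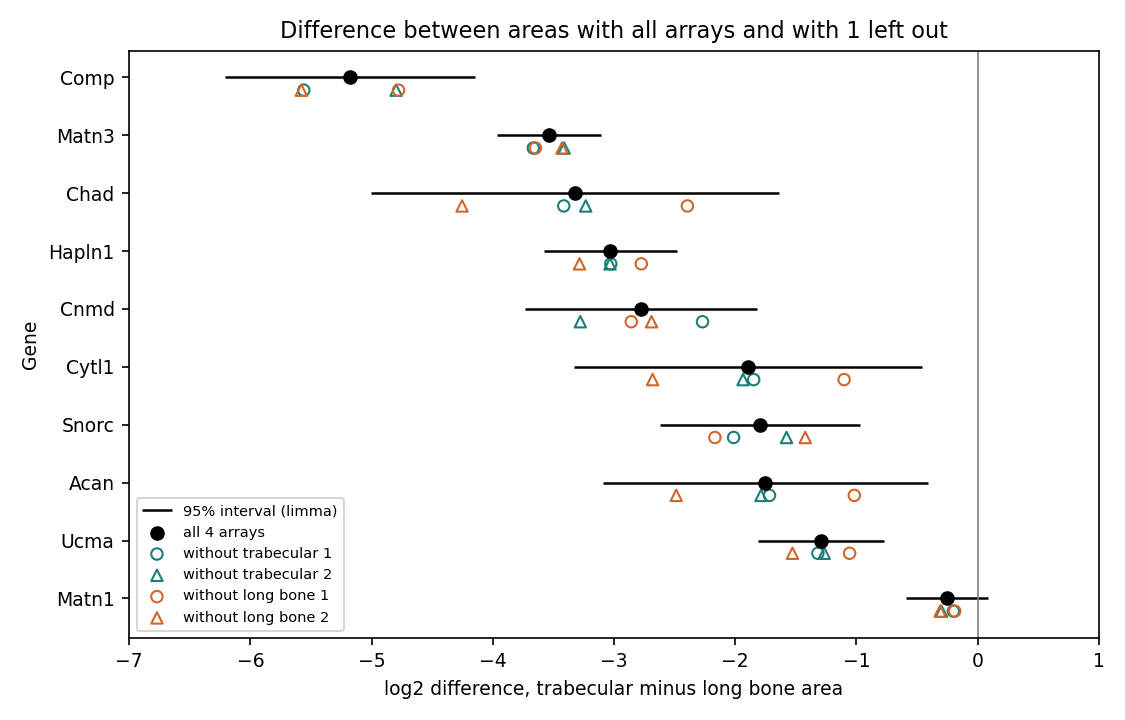
Log2 difference, trabecular minus long bone area (horizontal axis), for each of the 10 genes (vertical axis), as the mean of a gene's probe sets. Filled points use all 4 arrays with the 95% interval of the limma fit, and open points leave out 1 array each. Matn1 is the 1 gene whose interval reaches 0 and the 1 that turns under scaling to the spiked controls (0.15), and the open points of Acan, Cytl1 and Chad spread widest between the 2 long bone arrays.

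The 10 genes did not vary alike within an area. Between the trabecular arrays their median absolute distance was 0.14, the same as the 0.14 of all genes. Between the long bone arrays it was 0.63, against 0.21 for all genes, and 7 of the 10 were higher on array 1. Acan, Chad and Cytl1 were higher there by 1.47, 1.86 and 1.58, while for Snorc, Matn3 and Cnmd array 1 minus array 2 was -0.75, -0.22 and -0.17. The gap between the areas was larger than the wider of the distances between replicates for 8 of the 10 genes, the exceptions being Acan and Cytl1. For Matn1, 1 of the 8, it was 0.14 beside 0.12. The share of all genes with such a gap was not computed, so this count has no background to be set against.

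Of 4 marker genes of joint surface cells, Prg4 and Cilp were much higher on long bone array 1 than on the other arrays. Prg4, the lubricant of joint surfaces, read -0.76 and -0.79 on the trabecular arrays, against 6.50 and 0.76 on the long bone arrays. Cilp, a protein of the middle zone of joint cartilage, differed between the areas by -2.22, and read 3.56 and 0.17 on long bone arrays 1 and 2. Clu was near equal on the long bone arrays, at 1.46 and 1.22, and Erg overlapped between the areas with a difference of 0.33. The joint surface list (Prg4, Cilp, Clu and Erg) had medians of -0.47 and -0.67 on the trabecular arrays, against 2.51 and 0.47 on the long bone arrays. Its part in the values of Acan, Chad and Cytl1 was not tested. Reticular stroma markers moved with the other long bone array, and the medians of that list of 5 genes were 0.09 and -0.59 on the trabecular arrays, against -0.07 and 1.76 on the long bone arrays. As the areas overlapped for none of the 10 genes, leaving out a single array could not turn any of them, so that check does not test the direction.

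**Figure D3:**
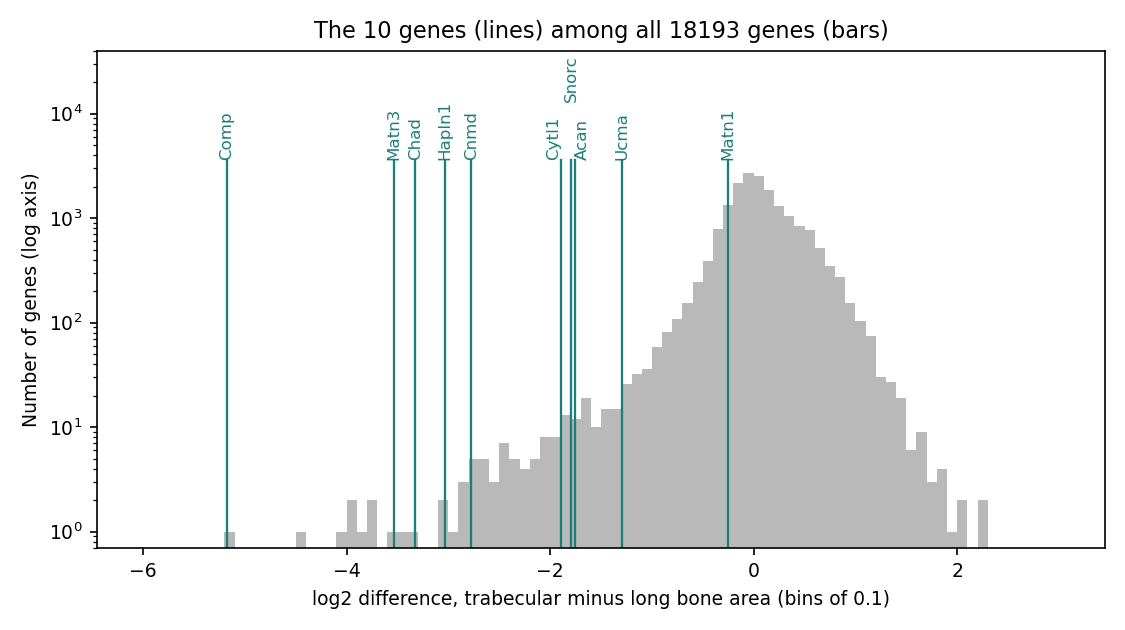
Number of genes (vertical log axis) by log2 difference, trabecular minus long bone area (horizontal axis, bins of 0.1), with a line at each of the 10 genes. Each gene is the mean of its probe sets. On that measure Comp has the lowest difference of all 18193 genes, Matn3, Chad, Hapln1 and Cnmd are among the 18 lowest, and Matn1 lies within the bulk.

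Other cartilage genes were read from a list of 73 genes ordered by role, of which 69 were measured. Of these the trabecular value was lower for 52, 39 with no overlap and 15 of them by at least 2-fold, and 17 were higher, 8 with no overlap and 0 by 2-fold. The share with no overlap among all genes was 21.4% lower and 29.9% higher. The median log2 difference of the list was -0.38. Scaled to the hybridisation controls it turned to 0.020, below the 0.43 of all genes in that setting, with 32 genes lower and 37 higher. With limma 0 of the 69 had an adjusted p under 0.05, and 29 had an unadjusted p under 0.05, where 15.5% of all genes did.

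The close relatives of the 10 genes included small and large differences. The other proteoglycans of the aggrecan family, all of which bind hyaluronan, had small differences, Vcan by -0.05, Bcan by -0.18 and Ncan by -0.21. The other link proteins had log2 differences of -0.10 for Hapln4, -0.0043 for Hapln2 and 0.08 for Hapln3, beside -3.03 for Hapln1. After scaling to the hybridisation controls the 3 aggrecan relatives and the 3 link proteins were all above 0, and Hapln3, at 0.48, was the 1 of these 6 above the median of all genes. All these values are means over a gene's probe sets. With the probe set of largest spread per gene, Ncan was at -0.82, Vcan at -0.57, Bcan at -0.41 and Hapln2 at -0.32. Hapln3 and Hapln4 did not move in that setting, and Hapln1 was at -3.80. By the median of a gene's probe sets Ncan was at -0.069 and Vcan at -0.0013. Of the other matrilins, Matn2, which is made in many connective tissues, read -0.31 and -1.49 on the trabecular arrays, against 0.91 and 0.31 on the long bone arrays. Its log2 difference was -1.52 (-0.93 without trabecular array 2), while that of Matn4 was 0.20.

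The thrombospondins, the family of Comp, went both ways. Thbs4, a form of tendon and muscle matrix, read -0.85 and -1.20 on the trabecular arrays, against 0.92 and 0.85 on the long bone arrays. The log2 difference was -1.92 for Thbs4, -1.80 for Thbs3 and -0.40 for Thbs2. Thbs1, an inhibitor of vessel growth, overlapped between the areas at 0.69 (0.28 without trabecular array 1). Chadl, a relative of Chad, had a difference of -0.76 (-0.38 without long bone array 2), and Tnmd, a relative of Cnmd found in tendon, overlapped at -0.27.

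The cartilage collagens had the group median closest to that of the 10 genes, -2.38. Lower with no overlap were 6 of 7, where 21.4% of all genes were. Lower values were found for 7 of 7, and for 6 of 7 after scaling to the hybridisation controls, which turned Col10a1. Col11a1, which sets the width of cartilage fibrils, had the lowest difference, -4.07. Of 14 measured matrix genes of other kinds 12 were lower (8 after that scaling), 9 with no overlap (beside the same 21.4%), with a median of -0.66. Prg4 led them at -4.41, and stood at -1.54 without long bone array 1.

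Genes that build the sugar chains had a median near 0. Of 14 genes of side-chain and hyaluronan synthesis 7 were lower and 7 higher (3 and 11 after scaling to the hybridisation controls), with a median of -0.10. Csgalnact1, which starts chondroitin sulfate chains, differed by -0.42, and Has2, a hyaluronan synthase, by 0.75. Both had no overlap, but after that scaling Csgalnact1 was near 0, at -0.019, and Has2 at 1.15. Of 9 genes that break down aggrecan or hyaluronan or inhibit that breakdown, 8 were lower (6 after that scaling), with a median of -0.59, led by the collagenase Mmp13 at -3.95, which can also cut aggrecan. Among binding partners of Acan and Hapln1, the glycoprotein Tnc differed by -2.43 and the hyaluronan receptor Cd44 by 0.64 (0.39 without trabecular array 1).

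Of 6 transcription factors of the cartilage lineage 4 were lower (2 after scaling to the hybridisation controls), with a median of -0.20. Trps1, a repressor active in growth plate chondrocytes, differed by -0.87 (-0.35 without long bone array 1), and Runx3 by 0.35. The probe sets of Trps1 disagreed in size, and it was at -0.48 by their median and at -2.30 by the one of largest spread. For Runx3 the probe set of largest spread was at 0.81. Sox9, the factor that drives Acan, Hapln1 and Matn1, read -0.03 and -0.13 on the trabecular arrays, against 0.30 and 0.02 on the long bone arrays. Of the markers of bone-forming cells 7 of 10 were measured. These 7 were lower in the trabecular area without overlap, where 21.4% of all genes were, at a median of -0.96. After that scaling 6 of them were lower, and Sp7 turned.

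**Figure D4:**
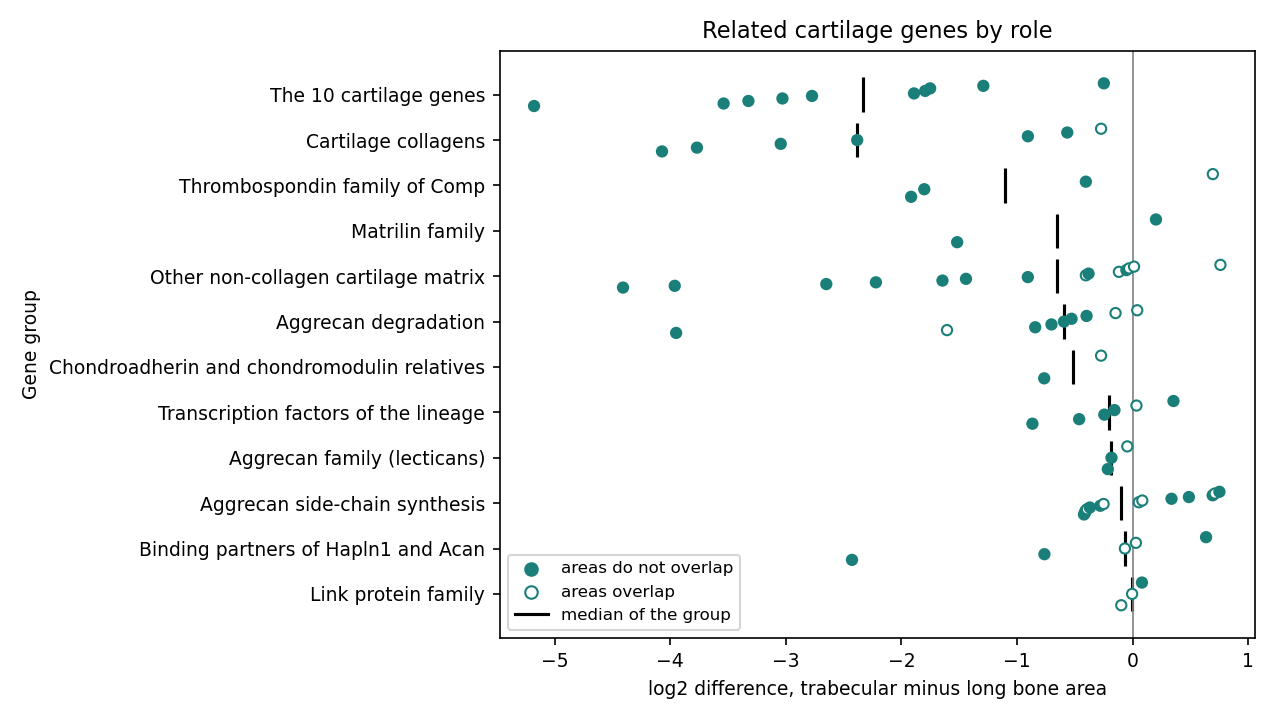
Log2 difference, trabecular minus long bone area (horizontal axis), for the 10 cartilage genes and the 69 related genes grouped by role (vertical axis). Filled points are genes whose areas do not overlap, open points overlap, and the black bar is the median of a group. The 10 genes (median -2.33) and the cartilage collagens (median -2.38) lie furthest left, and the link proteins lie near 0.

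The genes most like the 10 were found by their distance to the 10 genes' median value on each array, which was -0.88 and -1.07 on the trabecular arrays, against 1.76 and 1.21 on the long bone arrays. Likeness was the Euclidean distance over the 4 arrays, so it weighs size as well as direction. The 5 closest genes outside the 10 were Serpina1b (distance 0.46), 2900055J20Rik (0.50), the fibril-binding proteoglycan Dcn (0.51), Ecrg4 (0.56) and the cartilage collagen gene Col9a3 (0.57). Dcn read -0.94 and -1.16 on the trabecular arrays, against 1.34 and 0.93 on the long bone arrays. Of the 10 themselves Hapln1 was the closest at 0.67, and Comp the furthest at 2.80. Outside the 10, 8 genes were closer than Hapln1, 2089 than Matn1 and 13166 than Comp, so that median stands poorly for Matn1 and Comp. The closeness of Ecrg4 and Col9a3 rests on averaged probe sets. With the probe set of largest spread their log2 differences were -5.33 and -4.98, against -2.87 and -2.38 as means.

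Since the genes run in 1 direction, the 250 bases before their starts were read from RefSeq promoter windows of GRCm38.p6, found for 8 of the 10 genes and for neither Comp nor Snorc. The letters ACAATG and ACAAAG, cores of the SOX motif, were searched on both strands. They share their first letters and differ after them, so no position can match both on the same strand. They were found in 0 of the 8 windows, and 25.2% of all 32851 windows of that length hold at least 1 of them. TATAAA, the letters of a TATA box, was found in 1 of the 8, Chad, at positions -28 to -23 from its start, and 12.4% of all windows hold it on either strand. The share of G and C in the 8 windows ran from 54.0% to 74.4%, beside a median of 52.4% over all windows. Shown are Chad for its match, Acan for the highest share of G and C, and Matn3 and Matn1 as the relatives with a large and a small difference. They lie at chr11:94564797-94565046, chr7:79052976-79053225, chr12:8947679-8947928 and chr4:130944135-130944384, all on the plus strand, and capitals mark the TATAAA match.
Chad: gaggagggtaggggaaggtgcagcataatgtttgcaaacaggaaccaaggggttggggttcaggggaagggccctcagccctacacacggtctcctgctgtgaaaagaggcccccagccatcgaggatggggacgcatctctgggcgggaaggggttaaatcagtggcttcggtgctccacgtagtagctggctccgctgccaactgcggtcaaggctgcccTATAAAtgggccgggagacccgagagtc
Acan: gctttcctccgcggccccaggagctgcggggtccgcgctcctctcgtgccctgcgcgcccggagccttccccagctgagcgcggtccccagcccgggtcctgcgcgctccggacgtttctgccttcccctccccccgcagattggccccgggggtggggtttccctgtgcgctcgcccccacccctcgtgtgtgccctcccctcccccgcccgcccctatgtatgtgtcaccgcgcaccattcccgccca
Matn3: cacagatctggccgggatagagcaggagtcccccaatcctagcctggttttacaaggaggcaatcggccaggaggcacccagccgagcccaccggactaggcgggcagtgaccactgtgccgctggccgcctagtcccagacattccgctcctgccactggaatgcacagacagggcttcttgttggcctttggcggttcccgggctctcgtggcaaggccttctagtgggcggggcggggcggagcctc
Matn1: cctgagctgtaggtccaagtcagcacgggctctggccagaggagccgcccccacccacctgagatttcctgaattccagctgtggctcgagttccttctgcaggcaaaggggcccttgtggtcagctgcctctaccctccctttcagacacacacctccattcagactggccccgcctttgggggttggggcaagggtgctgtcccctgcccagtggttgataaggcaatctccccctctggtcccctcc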

How the data were processed

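Per the labels' protocols, biotin-labelled RNA of sorted mouse marrow cells was run on Affymetrix arrays. A human array is named in the series' design text, whereas the probe set names and their annotation are those of a mouse array, which was taken as the platform. The deposited values are log2 expression, made with RMA per the submitters' processing notes, with no version given. They were centred per probe set, as seen from the values: the median over the 4 arrays is 0 for all 45101 probe sets, to within rounding. No source used here names the software of that step.

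The 64 control probe sets were left out. The annotation gave exactly 1 gene to 34945 of the other 45037, several to 932 and none to 9160, and only the first were named (34741 matched RefSeq genes of GRCm38.p6 by gene ID, 0 symbols changed). A gene was the mean of its probe sets. Differences, trabecular minus long bone, were fitted over all probe sets and over all genes with lmFit and eBayes of limma 3.58.1 (R 4.3.3), without a block. The fit had 2 residual and 2.17 prior degrees of freedom. P-values were adjusted with Benjamini-Hochberg over each whole table and called at 0.05. With 2 arrays per area, the number of arrays limits the precision. No pair of arrays held the same values (65 to 107 identical probe sets per pair).

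The 10 genes and all lists were chosen with earlier results of these data known. The text names all 10 genes, every measured member of the aggrecan, link protein, matrilin and thrombospondin families, per role the largest non-overlapping difference in each direction, and the 5 closest patterns. Marker genes and Sox9 and Tnmd were named after their values were seen. Alternatives were another normalization, scaling to spiked controls, a replicate block, other variance estimates, other ways to join probe sets, 4-fold in place of 2-fold, and each array left out. Protein sequences were not used here. Markers not analysed here included Runx2, Spp1, Bglap, Ly6a and Hbb-bt, and related genes not analysed here were Clec3a, Fgfbp2, Xylt1 and Hyal1.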

Additional observations from a re-analysis of the deposited data

How the results depend on the processing

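With 2 arrays per area and 2 residual degrees of freedom, the calls depended on how the spread was estimated. Under the replicate block and the other variance estimates the differences themselves cannot change. Leaving out 1 array could not turn any of the 10 genes either, since their areas did not overlap. In those settings only the side of the threshold could change, so kept directions there are no evidence of stability. Of 120 recomputed differences of the 10 genes, 103 kept direction and side of the threshold, 16 passed it and 1, that of Matn1, turned. The number of the 10 genes called ranged from 0 to 9 with 1 array left out, the 9 without long bone array 1, where the spread comes from the trabecular pair and 8.81% of all genes (1603) passed. That of the 69 related genes ranged from 0 to 20, and the median over the 15 probe sets from -2.68 to -2.06. Scaled to the hybridisation controls, 6 of the 10 genes, 1 of the 15 probe sets and 16 related genes were called, with 15.7% of all genes (2857). The probe set median was then -1.72 and the related median 0.020, with Matn1 at 0.15, Vcan 0.36, Ncan 0.19, Bcan 0.22, Hapln2 0.40 and Hapln4 0.30, as this scaling adds 0.40 to every difference. With the probe set of largest spread per gene, 1 of the 10 (Matn3, at -5.87) and 1 related gene passed, a choice that itself favours large differences. With single-gene probe sets alone 1 probe set passed. At 4-fold, 8 of the 15 probe sets qualified against 13 at 2-fold. A second quantile normalization put Hapln2 at 0.0012. Leaving out 1 array moved Hapln2 between -0.063 and 0.054, Vcan between -0.13 and 0.042 and Hapln4 between -0.34 and 0.14. Otherwise the cause of these shifts was not tested. With the replicate number as a block 0 of the 10 genes and 0 probe sets were called; deviations of same-numbered arrays correlated at -0.18, so the numbers do not show a pairing, and the crossed pairing, added after seeing the data, also called 0. The median of the 10 genes was -2.33 under the block, which could not move it, as each block holds 1 array of each area.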

Other observations

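Markers of further cell types in marrow had medians near 0 for 3 lists. Of 6 myeloid genes 2 were lower and 4 higher in trabecular cells, at a median of 0.04. The 3 endothelial genes had a median of 0.04 and the 2 measured erythroid genes one of 0.04. Within areas some of these genes were far apart. Elane read -1.04 and 0.69 on the trabecular arrays, against -0.69 and 0.82 on the long bone arrays. Mpo and the erythroid gene Klf1 were also higher on array 2 of each area. By contrast Ltf, Camp, S100a8 and S100a9 were lower on long bone array 2 than on array 1. Scaled to the hybridisation controls, which put the median of all genes at 0.43, the 3 lists had 6 of 6, 3 of 3 and 2 of 2 genes higher, each with a median of 0.44. Of the tendon and perichondrium list, Scx and Mkx, transcription factors of tendon, were at -0.06 and 0.04, while Thbs4 was at -1.92. Egr1 and Tnmd of that list overlapped between the areas at -0.80 and -0.27. Of the hypertrophic chondrocyte list, Col10a1 and Ihh overlapped between the areas at -0.27 and -0.08, while Pth1r, the receptor of parathyroid hormone, was at -1.09 and Mmp13 at -3.95. After the same scaling the tendon list had 2 genes lower and 3 higher, with Scx and Tnmd turned. The hypertrophic list then had 2 lower and 2 higher, with Col10a1 and Ihh turned. With limma 0 genes of these lists had an adjusted p under 0.05, and at an unadjusted p under 0.05 there were 0 of the myeloid, endothelial and erythroid genes, 1 of 5 tendon genes and 2 of 4 hypertrophic genes, where 15.5% of all genes had one.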
